A study of Mus musculus with 6 samples.

Results

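The genes Srgn, Hs3st1, Thbd, Pth1r, Pdgfra and Snai1, all linked to the parietal endoderm, were followed across the arrays. They were chosen by gene symbol, and every probe carrying 1 of these symbols in the platform annotation was taken, which gave 9 of the 11097 probes and 6 of the 7774 named genes of the deposited table. Srgn had 2 probes, Pth1r had 3 and the others had 1 each. Messenger RNA was measured on Illumina mouse bead arrays of 1 colour. The cells came from R1 mouse embryonic stem cells that carried a GFP construct for Sox17, an endoderm transcription factor, and that were exposed to Activin A and Wnt3A for 6 days. GFP-positive cells were collected by fluorescence-activated sorting, and RNA was taken from 3 groups. The first group is P6 mes2, sorted endoderm after 6 passages in co-culture with mesenchyme 2. The second is P6 mes1, the same starting cells after 6 passages with mesenchyme 1. The third is P0, unpassaged endoderm on gelatin, which all comparisons with passaged cells use. Differentiation with both growth factors, the reporter construct and the sort are shared by all groups, and the labels do not name the tissues behind the 2 mesenchymes. Each group had 2 arrays that the design text calls technical duplicates, so the values describe 1 culture per group, and p-values measure the spread between arrays of that culture, not between cultures.

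The parietal endoderm is an extraembryonic tissue of the rodent embryo. It arises from the primitive endoderm and lays down Reichert's membrane, a thick basement membrane between the embryo and the maternal tissue. In mouse embryonal carcinoma and embryonic stem cells, parathyroid hormone-related peptide acting through Pth1r and cyclic AMP is known to promote its formation. Srgn encodes serglycin, a proteoglycan core protein, and Hs3st1 a sulfotransferase that adds the rare sulfate group by which heparan sulfate binds antithrombin. Thbd encodes thrombomodulin, the surface receptor that turns thrombin towards activation of protein C. Pth1r encodes the receptor shared by parathyroid hormone and its related peptide, and Pdgfra a receptor tyrosine kinase that marks the primitive endoderm early. Snai1 encodes a zinc finger repressor known for silencing the cadherin gene Cdh1 in epithelial to mesenchymal transitions.

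Promoters are shown for 4 members because all members changed together on mesenchyme 2. RefSeq windows of build GRCm38.p6 matched 5 of the 6 members, all but Thbd, with 2 start sites for Srgn and 3 for Pth1r. Each line gives the 250 bases before a start site on the gene's strand. These are chr10:62527446-62527695 (minus strand) for Srgn, the first of its 2 start sites in the table, chr5:39644632-39644881 (minus strand) for Hs3st1, chr5:75152001-75152250 (plus strand) for Pdgfra and chr2:167537945-167538194 (plus strand) for Snai1. Capitals mark matches on either strand to GATAA (the core bound by GATA factors), ACAAT (SOX factors), CACCTG (the E-box bound by Snail proteins) and TGACG (the core of the cyclic AMP response element); no matches overlap.
Srgn: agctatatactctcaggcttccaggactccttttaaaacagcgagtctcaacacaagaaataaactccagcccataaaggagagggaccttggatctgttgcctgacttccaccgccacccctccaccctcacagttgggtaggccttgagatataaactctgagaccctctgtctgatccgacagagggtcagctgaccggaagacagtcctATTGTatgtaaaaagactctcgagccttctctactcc
Hs3st1: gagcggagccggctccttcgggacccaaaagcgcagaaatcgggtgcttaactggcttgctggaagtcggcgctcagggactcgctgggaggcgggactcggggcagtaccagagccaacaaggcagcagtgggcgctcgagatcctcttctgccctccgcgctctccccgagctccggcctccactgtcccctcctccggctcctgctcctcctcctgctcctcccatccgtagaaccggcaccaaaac
Pdgfra: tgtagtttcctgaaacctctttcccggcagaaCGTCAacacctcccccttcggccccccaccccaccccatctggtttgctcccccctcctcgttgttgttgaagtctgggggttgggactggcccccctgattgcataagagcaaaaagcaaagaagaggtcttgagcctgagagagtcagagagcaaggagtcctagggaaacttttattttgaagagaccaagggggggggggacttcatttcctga
Snai1: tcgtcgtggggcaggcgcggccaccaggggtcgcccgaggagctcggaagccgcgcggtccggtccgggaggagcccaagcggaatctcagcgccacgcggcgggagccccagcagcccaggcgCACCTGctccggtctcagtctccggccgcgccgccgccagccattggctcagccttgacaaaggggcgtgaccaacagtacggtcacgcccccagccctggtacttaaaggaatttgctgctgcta
The Srgn window holds 1 SOX core, that of Pdgfra 1 cyclic AMP response core and that of Snai1 1 E-box, whose first base is at position -126 from the start site, while Hs3st1 has none of the 4 motifs. Among 32851 promoter windows of this length, 22.6% hold GATAA, 27.7% ACAAT, 17.2% CACCTG and 17.8% TGACG. Of the windows not printed, the second start site of Srgn holds 1 cyclic AMP response core, and the 3 of Pth1r hold a cyclic AMP response core, a GATA core and no motif. No single motif is shared by all members, and binding was not measured.

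Array means of the deposited intensities lay between 393.25 and 394.25. The lowest intensity on an array was 7.49 to 8.66. Levels below are normalized intensities in arbitrary units, each set only against the same probe, or the sum over the same probes, on other arrays; differences are log2 values ± SE from a limma fit over all 8396 genes and unnamed probes. A difference is called when its Benjamini-Hochberg adjusted p is under 0.05 and it is at least 2-fold. The transcript behind the sort, Sox17, stood at 722 and 680 on the P6 mes2 arrays, 83.2 and 80.5 on P6 mes1, and 103 and 90.6 on P0. Because RNA came from whole sorted populations, a change in the share of cells that express a gene and a change in RNA per cell cannot be told apart.

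**Figure D1:**
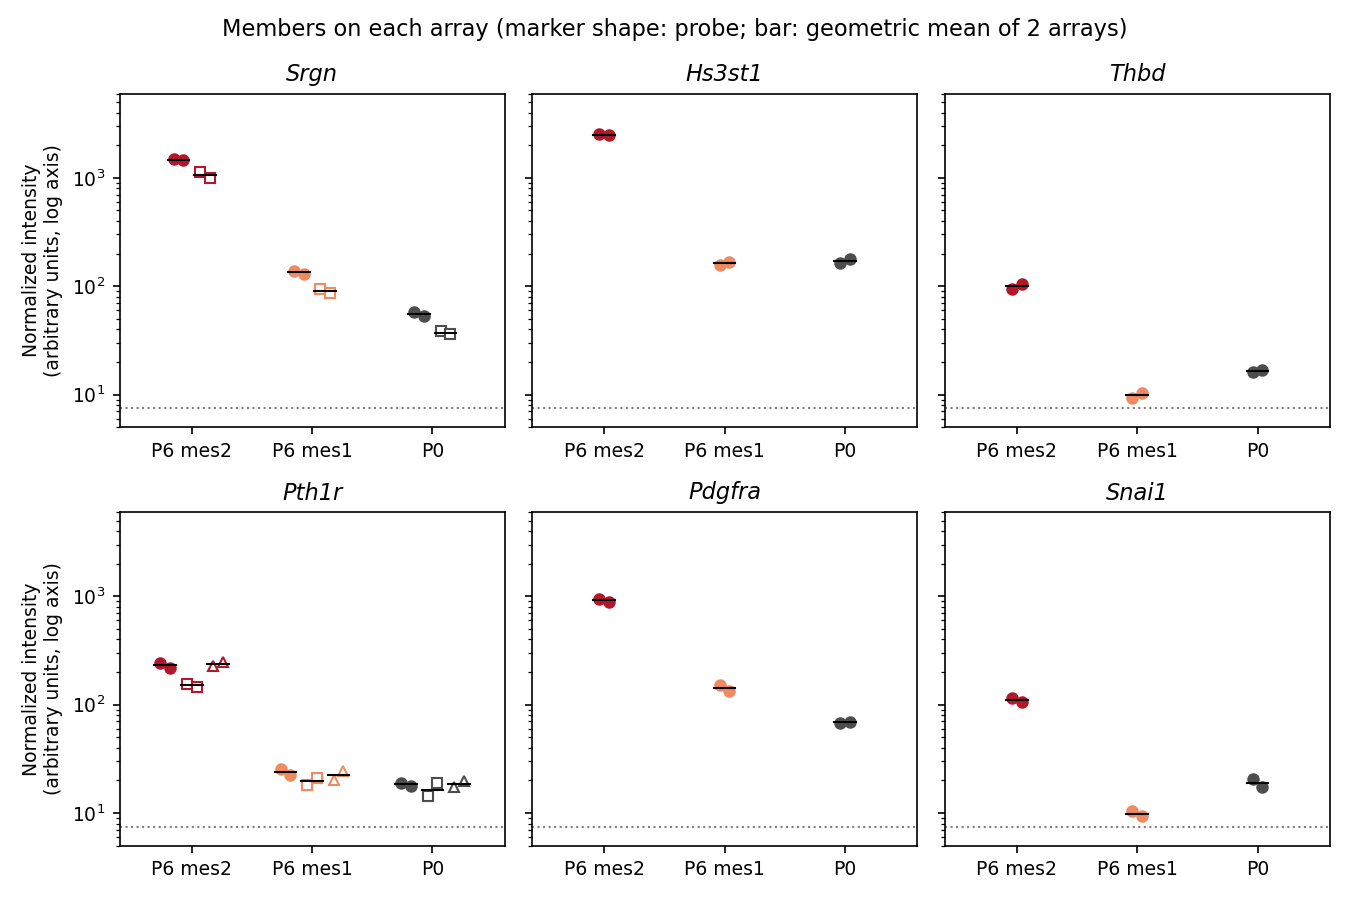
Normalized intensity (log axis) of every probe of the 6 genes on the 6 arrays, with a marker shape per probe, the 2 arrays of a group side by side, a bar at their geometric mean and a dotted line at the lowest intensity of the table. The P6 mes2 arrays lie above the P6 mes1 and P0 arrays for all 9 probes, whereas P6 mes1 lies above P0 for Srgn and Pdgfra and below it for Thbd and Snai1.

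The first question is how endoderm kept on mesenchyme 2 differed from unpassaged endoderm. All 6 genes were higher on P6 mes2 than on P0, by 5.89-fold to 26.6-fold, and all passed the test, while 10.3% of all features were called higher and 8.46% lower in this comparison (18.7% in either direction). The genes were chosen with earlier results of these arrays known, so this count, and that against P6 mes1 below, is a description. How probes were chosen for the deposited table is not given in the sources used here. Thbd, Snai1 and Pth1r, low on P0 and P6 mes1, could be in it only through their P6 mes2 level.

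Among the proteoglycan genes, Srgn read 1485 and 1459 on the P6 mes2 arrays, 139 and 129 on P6 mes1, and 58.2 and 52.5 on P0. All 3 groups stood apart, with P6 mes2 at the top and P0 at the bottom. The rise against P0 was 4.73 ± 0.0954 (26.6-fold, adjusted p = 1.19e-06), the one placed 6 among 8396 features ordered by rise. The second Srgn probe gave 1130 and 988 on P6 mes2, 94.9 and 86.6 on P6 mes1, and 38.2 and 36.5 on P0. Its rise was 4.82 ± 0.108 in a fit over all probes, close to that of the first. Hs3st1 read 2528 and 2481 on P6 mes2, 158 and 166 on P6 mes1, and 165 and 180 on P0. It was high on mesenchyme 2 alone among the 3 groups, and the arrays of the other two groups overlapped. Its rise against P0 was 3.86 ± 0.0911 (14.5-fold, adjusted p = 1.55e-06).

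Among the receptors at the cell surface, Pdgfra read 950 and 891 on P6 mes2, 152 and 134 on P6 mes1, and 67.7 and 69.4 on P0. The groups did not overlap and kept the same order as for Srgn. Its rise against P0 was 3.75 ± 0.0987 (13.4-fold, adjusted p = 1.85e-06). Pth1r read 243 and 220 on P6 mes2, 25.3 and 22.4 on P6 mes1, and 19.1 and 17.9 on P0 with its brightest probe. The rise against P0 was 3.65 ± 0.106 (12.5-fold, adjusted p = 2.2e-06). The other Pth1r probes gave 156 and 146, and 229 and 246, on P6 mes2, against 14.4 and 18.8, and 17.2 and 19.6, on P0. Their rises were 3.19 ± 0.151 and 3.69 ± 0.126, so the 3 probes gave the same direction and call. Thbd read 94.4 and 105 on P6 mes2, 9.35 and 10.3 on P6 mes1, and 16.1 and 16.9 on P0. It rose by 2.59 ± 0.100 against P0 (6.04-fold, adjusted p = 4.4e-06).

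The regulator Snai1 read 116 and 106 on P6 mes2, 10.4 and 9.34 on P6 mes1, and 20.7 and 17.2 on P0. The arrays of P6 mes2 were the high ones and those of P6 mes1 the low ones, without overlap. Snai1 rose by 2.56 ± 0.121 against P0 (5.89-fold, adjusted p = 9.27e-06). For comparison, duplicates of 1 group differed by 0.0253 to 0.263 (log2) over the 6 genes and 3 groups. The calls of all 6 genes against P0 held in each fit that left out 1 array, but the folds depend on the low P0 intensities. With 50 added to every intensity the P6 mes2 over P0 folds were 14.4 for Srgn, 8.18 for Pdgfra, 4.11 for Pth1r, 2.25 for Thbd and 2.34 for Snai1, and 11.5 for Hs3st1.

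**Figure D2:**
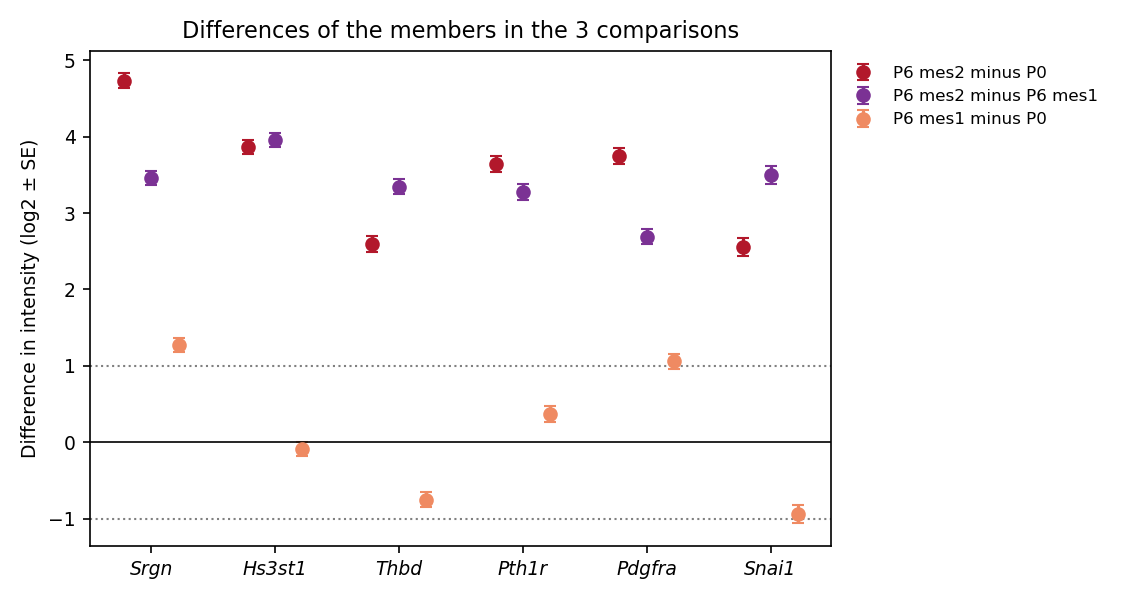
Difference in intensity (log2 ± SE of the limma fit, 2 arrays per group) of the 6 genes in the 3 comparisons, with dotted lines at a 2-fold change in either direction. The differences of P6 mes2 from P0 and from P6 mes1 lie between 2.56 and 4.73, and those of P6 mes1 from P0 between -0.94 and 1.27.

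The second question is how passage on mesenchyme 1 differed from no passage, and here the genes split. Of the 6, 2 were called, both higher on P6 mes1, against 5.48% of all features called in either direction, 2.62% higher and 2.86% lower. Srgn was higher by 1.27 ± 0.0954 (2.42-fold, adjusted p = 0.000323) and Pdgfra by 1.06 ± 0.0987 (2.08-fold, adjusted p = 0.000569). Hs3st1 differed by -0.09 ± 0.0911 (adjusted p = 0.454), Pth1r by 0.37 ± 0.106 (adjusted p = 0.0268), Thbd by -0.75 ± 0.100 (adjusted p = 0.00176) and Snai1 by -0.94 ± 0.121 (adjusted p = 0.00155). For Thbd, Snai1 and the brightest probe of Pth1r the adjusted p was under the threshold and the difference was under 2-fold. In the fit over all probes the second Srgn probe gave 1.28 ± 0.108 and was called as well. The other Pth1r probes gave 0.25 ± 0.151 (adjusted p = 0.214) and 0.29 ± 0.126 (adjusted p = 0.104) in that fit. The calls near 2-fold rest on single arrays. Without P6 mes1 replicate 1, Pdgfra stood at 0.97 and lost its call, and Snai1 stood at -1.01 and was called lower. Without P0 replicate 2, Snai1 stood at -1.07 and was called lower. With 50 added to every intensity, Srgn stood at 0.80 and Pdgfra at 0.70, and neither was called. Snai1 stood at -0.20 and Thbd at -0.15 with 50 added, so their lower values on P6 mes1, and the Snai1 calls gained above, rest on intensities near the low end of the arrays.

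The third question is how the 2 passaged cultures differed. All 6 genes were called higher on P6 mes2 than on P6 mes1, where 13.9% of all features were called higher and 11.5% lower (25.4% in either direction). Hs3st1 was higher by 3.95 ± 0.0911 (15.5-fold, adjusted p = 1.41e-06), Snai1 by 3.50 ± 0.121 (11.3-fold, adjusted p = 2.19e-06) and Srgn by 3.46 ± 0.0954 (11.0-fold, adjusted p = 1.41e-06). Thbd was higher by 3.34 ± 0.100 (10.2-fold), Pth1r by 3.28 ± 0.106 (9.72-fold) and Pdgfra by 2.69 ± 0.0987 (6.44-fold). Thbd and Snai1 lay near the lowest intensities of the P6 mes1 arrays, 8.66 and 8.52, and no detection call was used, so their folds depend on that low end. With 50 added to every intensity the folds were 2.50 for Thbd, 2.69 for Snai1 and 3.81 for Pth1r, and 12.0 for Hs3st1, 8.28 for Srgn and 5.03 for Pdgfra. Each comparison shares arrays with the other two, so the values are given side by side and are not independent of each other.

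**Figure D3:**
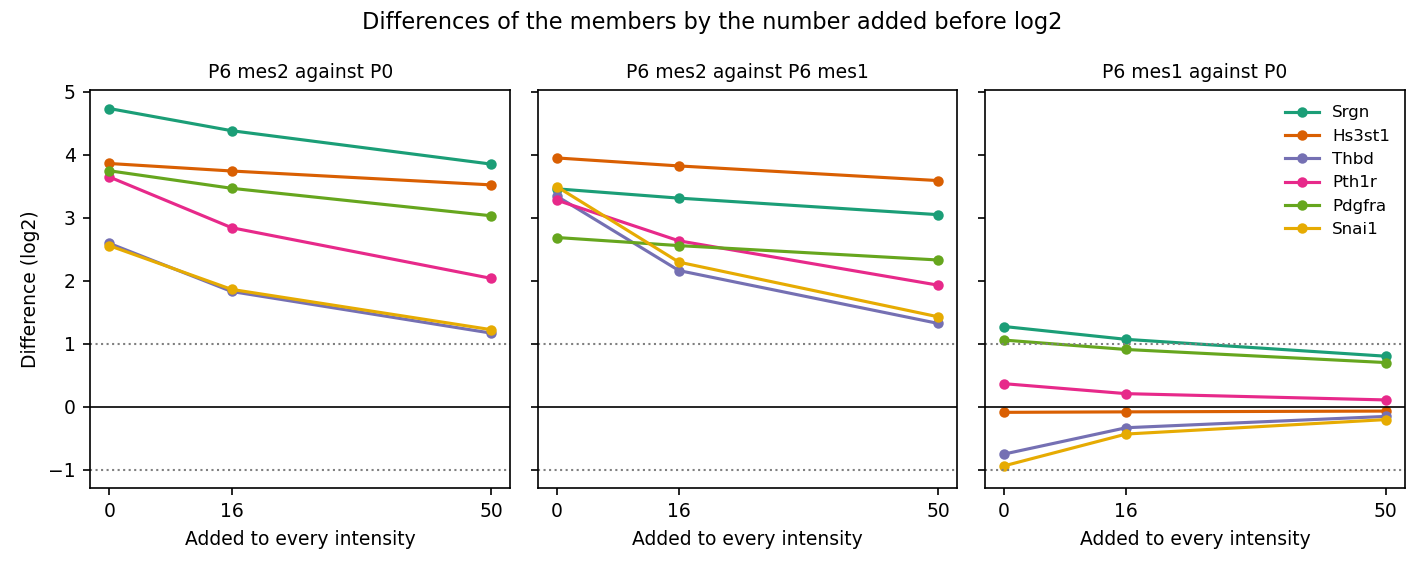
Difference (log2) of the 6 genes in each comparison with 0, 16 or 50 added to every intensity before the logarithm. The low-intensity genes Thbd, Snai1 and Pth1r shrink most, to 1.17, 1.22 and 2.04 for P6 mes2 against P0 with 50 added, and the differences of P6 mes2 stay above the dotted 2-fold line.

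Other genes of the parietal endoderm were taken from a list of 32, of which 29 were measured. This list includes Sox17, the transcript behind the sort. All lists were chosen with earlier results of these arrays known, so their counts are descriptions. The counts of this and the other lists stand beside the shares of all features called. Against P0 these were 10.3% higher and 8.46% lower on P6 mes2, and 2.62% higher and 2.86% lower on P6 mes1. Between the passaged cultures 13.9% were called higher on P6 mes2 and 11.5% lower. On P6 mes2, 19 of the 29 rose against P0 and none fell (median 1.90, against 0.02 over all features). Lama1, a laminin subunit of Reichert's membrane, read 5115 on P6 mes2, 1016 on P6 mes1 and 434 on P0 (geometric means of 2 arrays), a rise of 3.56 ± 0.131 on P6 mes2 against P0. The transcription factor genes Gata6, Sox7 and Gata4 rose by 3.40 ± 0.118, 2.95 ± 0.12 and 1.90 ± 0.304, Sox17 by 2.86 ± 0.0994, and the endocytic adaptor gene Dab2 by 2.13 ± 0.0963. Gata4 is a low signal, at 42.5 on P6 mes2 and 11.4 on P0, and with 50 added it stood at 0.58 and was not called. Vim, an intermediate filament gene, stood at -0.98 and missed the 2-fold limit. The count of falls on the list was 1 with arrays centred on their medians, with quantile normalization, with the mean of all probes and without P0 replicate 1.

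On P6 mes1, 2 of the 29 rose against P0 and 4 fell (median -0.14, against -0.02 over all features). Lama1 rose by 1.23 ± 0.131 and Gata6 by 1.13 ± 0.118. The falls were those of Krt19, a keratin, by 1.43 ± 0.0989, of Nid1, a basement membrane linker, by 1.07 ± 0.126, of the matrix protein gene Sparc by 1.07 ± 0.0975 and of the galectin gene Lgals3 by 1.04 ± 0.0905. Without P0 replicate 1, Gata6 stood at 0.97 and Nid1 just short of 2-fold, and both calls were lost. Gata6 also lost its call with 50 added, at 0.91. Nid1 also lost its call without P6 mes1 replicate 1, at -0.96, and with 50 added, at -0.87, and Sparc without P6 mes1 replicate 2, at -0.97. With the mean of all its probes, Sparc stood at -0.54 and was not called. Between the passaged cultures, 23 of the 29 were higher on P6 mes2 and 1 was lower (median 2.11, against 0.02 over all features). The forkhead factor gene Foxq1 was higher by 3.50 ± 0.0981 and Sox17 by 3.10 ± 0.0994, and the cadherin gene Cdh3 was lower, at -1.07 ± 0.109. Cdh3 lost its call with 16 added (-0.91) and with 50 added (-0.69), which leaves 0 of the list called lower.

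**Figure D4:**
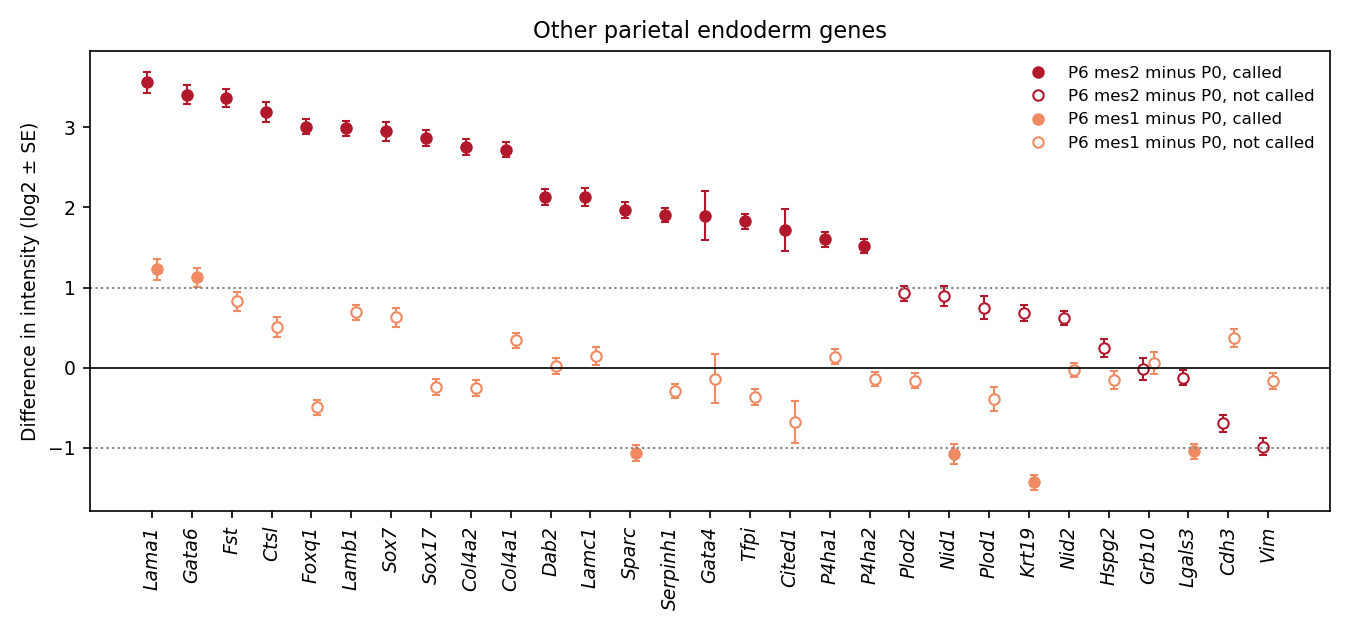
Difference from P0 (log2 ± SE, 2 arrays per group) of the 29 other parietal endoderm genes measured, on P6 mes2 and on P6 mes1, ordered by the first; filled points were called. On P6 mes2 19 genes were called, from 1.52 for P4ha2 to 3.56 for Lama1, whereas on P6 mes1 the 6 called genes lie on both sides of 0.

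The label was set against markers of other cells. Genes of the visceral endoderm, the sister tissue, were higher on P6 mes2 too. Of 11 measured of 22, 9 rose against P0 and none fell (median 2.43), led by the alpha-fetoprotein gene Afp at 4.04 ± 0.157 and the apolipoprotein gene Apoa1 at 3.69 ± 0.156. The list's summed intensity was 8195 to 8620 on P6 mes2, 1135 to 1167 on P6 mes1 and 1901 to 1913 on P0. Summed over its own probes, the parietal list gave 47566 to 48173 on P6 mes2, 12809 to 13346 on P6 mes1 and 14021 to 14685 on P0, and the sums of the 2 lists, of different probes, are not compared. On P6 mes1, 2 of the 11 visceral genes rose and 3 fell against P0 (median -0.73, against -0.02 over all features). With 16 added 1 rose and 1 fell, and with 50 added none rose and 1 fell. The pluripotency genes Pou5f1 and Nanog were measured in all groups, at 1018 and 1632 on P6 mes2, 2280 and 2001 on P6 mes1, and 2833 and 2310 on P0. Pou5f1 was lower on P6 mes2 than on P0, by 1.48 ± 0.0925, and Nanog differed by -0.50 ± 0.111 and was not called. Of the 16 pluripotency genes measured of 18, 1 rose and 7 fell on P6 mes2 against P0 (median -0.67), and 1 rose and 1 fell on P6 mes1 (median -0.20). The rise on P6 mes2 was that of Klf4, at 1.66 ± 0.0969. With the mean of all its probes Klf4 stood at 0.43 there and was not called. On P6 mes1 the rise was that of Fgf4, at 3.28 ± 0.213, and the fall that of Klf4, at -1.35 ± 0.0969. The arrays gave parietal, visceral and pluripotency transcripts from the same sorted populations, and the share of each cell type was not measured.

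Pdgfra is also expressed by mesenchyme, the cell type of the co-culture. Of 24 mesenchyme and fibroblast markers 8 were measured, and Col1a1, Col1a2, Col3a1 and Pdgfrb were not analysed here. Their summed intensity was 5426 to 5602 on P6 mes2, 5831 to 6242 on P6 mes1 and 4056 to 4378 on P0, most of it from the smooth muscle actin gene Acta2. None of the 8 was called on P6 mes2 against P0 (median -0.04), where Pdgfra was 13.4-fold higher. On P6 mes1, where Pdgfra was 2.08-fold higher, the collagen gene Col5a1 was called higher, at 1.02 ± 0.0872, and the median was 0.41. The Col5a1 call was lost without P0 replicate 2 (0.98), without P6 mes1 replicate 1 (0.99) and with 50 added (0.97). RNA was taken from cells sorted for Sox17-GFP. The part of carried-over mesenchyme in the Pdgfra level was not tested for P6 mes2 or for P6 mes1.

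None of the 3 platelet-derived growth factor ligand genes measured was called higher on P6 mes2 than on P0. Pdgfa, the main ligand of the receptor encoded by Pdgfra, read 761 and 763 on P6 mes2, 435 and 420 on P6 mes1, and 1166 and 1196 on P0. Its level was highest on P0, and it fell by 1.47 ± 0.0834 on P6 mes1 against P0, while P6 mes2 differed by -0.63 ± 0.0834 and was not called. Pdgfb read 111 and 104 on P6 mes2, 35.9 and 32.1 on P6 mes1, and 119 and 136 on P0, a fall of 1.91 ± 0.109 on P6 mes1 against P0. Between the passaged cultures Pdgfb was called higher on P6 mes2, by 1.66 ± 0.109, a call lost with 50 added (0.90). Pdgfc was lower on P6 mes2 than on P0, at -1.16 ± 0.177, a call that was lost without P0 replicate 2 (-0.93), with 16 added (-0.79) and with 50 added (-0.48). Of 23 genes on the list of this pathway, ligands included, 15 were measured. On P6 mes2 against P0, 1 rose and 1 fell (median 0.10), where 10.3% of all features were called higher and 8.46% lower. On P6 mes1, none rose and 2 fell (median -0.06), where 2.86% of all features were called lower. The 1 that rose was Pik3r1, a regulatory subunit of phosphoinositide 3-kinase, at 1.01 ± 0.101. It lost its call without P0 replicate 2 (0.95), with arrays centred on their medians (0.95), with quantile normalization (0.95), with the mean of all its probes (0.84) and with 16 or 50 added (0.90 and 0.73). Between the passaged cultures, 3 of the 15 were higher on P6 mes2 and 1 was lower (median 0.36), where 13.9% of all features were called higher and 11.5% lower. The 1 lower was Pdgfc, at -1.12 ± 0.177, a call lost without P6 mes1 replicate 1 (-0.94), with 16 added (-0.76) and with 50 added (-0.46).

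Of the signalling genes behind Pth1r, 12 of 27 were measured, and the ligand genes Pth and Pthlh were not analysed here. On P6 mes2, Adcy6, an adenylyl cyclase that makes cyclic AMP, rose against P0 by 2.01 ± 0.269, and Pde7a, a phosphodiesterase that degrades it, fell by 1.08 ± 0.221 (list median -0.07, against 0.02 over all features). Adcy6 read 130 and 131 on P6 mes2, 35.9 and 19.8 on P6 mes1, and 37.0 and 28.3 on P0. The P6 mes2 arrays stood above the rest, and the other groups overlapped. Pde7a read 8.61 and 13.7 on P6 mes2 and 25.5 and 20.8 on P0, all near the low end of the table. It lost its call without P0 replicate 1 (-0.93), without P6 mes2 replicate 1 (-0.75), with quantile normalization (-0.97), with 16 added (-0.53) and with 50 added (-0.26). The catalytic and regulatory subunits of protein kinase A, Prkacb and Prkar1a, differed on P6 mes2 by 0.08 ± 0.14 and 0.31 ± 0.0914. On P6 mes1 none of the 12 was called (median -0.11).

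Srgn and Hs3st1 act among genes that build, sulfate or carry glycosaminoglycan chains. Of 22 measured of 46, 2 rose and 1 fell on P6 mes2 against P0 (median 0.17), where 10.3% of all features were called higher and 8.46% lower, and none was called on P6 mes1 (median 0.01). Chst15, a chondroitin sulfate sulfotransferase, read 339 and 337 on P6 mes2, 72.3 and 77.0 on P6 mes1, and 85.4 and 71.2 on P0, a rise of 2.12 ± 0.111 on P6 mes2. Like Hs3st1, it was high on the P6 mes2 arrays with the other groups overlapping. Extl2, a glycosyltransferase, rose by 1.34 ± 0.115, a call lost with 50 added (0.91). Sulf1, which removes sulfate from heparan sulfate at the cell surface, read 104 and 94.2 on P6 mes2, 444 and 535 on P6 mes1, and 313 and 308 on P0. It fell on P6 mes2 by 1.65 ± 0.116 against P0, and differed by 0.65 ± 0.116 on P6 mes1. Between the passaged cultures, 5 of the 22 were higher on P6 mes2 and 2 were lower. Chst15 was higher by 2.18 ± 0.111 and the syndecan gene Sdc4 by 1.42 ± 0.136, and Sulf1 was lower, at -2.30 ± 0.116. The syndecan gene Sdc1 was lower too, at -1.09 ± 0.182, a call lost without P6 mes1 replicate 1 (-0.85), without P6 mes2 replicate 1 (-0.90), with 16 added (-0.63) and with 50 added (-0.34).

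Thbd belongs to the control of clotting at the cell surface. Of 19 genes on that list 6 were measured, of which 4 rose and none fell on P6 mes2 against P0 (median 1.44), and 1 fell on P6 mes1 (median -0.48). The urokinase receptor gene Plaur rose on P6 mes2 by 2.81 ± 0.191, the protein S gene Pros1 by 2.29 ± 0.0953, the tissue factor pathway inhibitor gene Tfpi by 1.83 ± 0.0956 and the thrombin receptor gene F2r by 1.05 ± 0.0944. Tfpi is on the parietal list as well. The F2r call was lost without P0 replicate 2 (0.97) and with arrays centred on their medians (0.98). The annexin gene Anxa2 fell on P6 mes1 by 1.05 ± 0.149, a call lost without P0 replicate 1 (-0.94). Thbd is also an endothelial gene, and of 15 endothelial markers 7 were measured, with a summed intensity of 1915 to 2046 on P6 mes2, 906 to 942 on P6 mes1 and 851 to 852 on P0. On P6 mes2 against P0, Esam, Flt1 and Tek rose, by 3.90 ± 0.0953, 2.50 ± 0.106 and 1.47 ± 0.128, while Robo4 and Vwf fell, by 2.31 ± 0.136 and 1.76 ± 0.124. With 50 added, Vwf stood at -0.79 and lost its call. Pecam1, an adhesion molecule of endothelium, read 155 and 149 on P6 mes2, 170 and 183 on P6 mes1, and 203 and 212 on P0. It was not called. On P6 mes1 none of the 7 was called (median 0.26), and the part of endothelial cells in the Thbd level was not tested. Srgn is abundant in blood cells. Of 18 blood cell markers 2 were measured, Laptm5 and Coro1a, and neither was called in any comparison; Laptm5 read 2696 and 2977 on P6 mes2, 2299 and 2190 on P6 mes1, and 2763 and 2612 on P0.

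The gene known to be silenced by the Snai1 product, Cdh1, did not differ by 2-fold. Cdh1 read 969 and 1049 on P6 mes2, 1062 and 1207 on P6 mes1, and 937 and 938 on P0. The difference of P6 mes2 from P0 was 0.11 ± 0.101 (adjusted p = 0.387). On these arrays Snai1 was 5.89-fold higher, or 2.34-fold with 50 added, and its protein was not measured. Of 32 factors of epithelial to mesenchymal transition and genes linked to Snai1, 22 were measured. On P6 mes2 against P0, 2 rose and 2 fell (median -0.20), where 10.3% of all features were called higher and 8.46% lower. On P6 mes1, 1 fell (median -0.01), where 2.86% of all features were called lower. The tight junction genes Ocln and Cldn6 rose on P6 mes2 by 1.53 ± 0.158 and 1.42 ± 0.105, and with 50 added Ocln stood at 0.69 and lost its call. Cldn3, another of that family, fell on both mesenchymes, by 1.21 ± 0.122 on P6 mes2 and by 1.68 ± 0.122 on P6 mes1. Cldn3 was a low signal, at 15.9, 11.5 and 36.8 on P6 mes2, P6 mes1 and P0, and both calls were lost with 16 added (-0.73 and -0.94) and with 50 added (-0.40 and -0.50). The histone deacetylase gene Hdac1 fell on P6 mes2 by 1.02 ± 0.0967, and lost the call without P0 replicate 2 (just short of 2-fold), without P6 mes2 replicate 1 (-0.95) and with 16 or 50 added (-0.97 and -0.88). Snai2, the closest relative of Snai1, was not analysed here. The listed factors Snai3, Twist1, Twist2 and Zeb1 stood between -0.30 and -0.09 on P6 mes2 against P0, and Tcf4 stood at 0.36. None of these factors was called.

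The genes with the most similar pattern over the 6 arrays were sought among 7641 named genes, by the root mean square difference of log2 values centred per gene, which is 0 for an identical pattern. The search used the same arrays, so it describes likeness and carries no test. Nearest to Srgn were Dram1, Klb and Slc34a2 (0.198 to 0.296), each lowest on P0, and nearest to Pdgfra were Fst, Lama1 and Taf7l (0.170 to 0.192), Fst and Lama1 being on the parietal list. Hs3st1 was closest to Slco2a1, Esam and Pga5 (0.121 to 0.173), genes that like it were not called between P6 mes1 and P0. Pth1r was closest to Pga5, Ctsh and Taf7l (0.153 to 0.188). Thbd was closest to Ttr, S100a13 and Kdelr3 (0.0919 to 0.128), and Snai1 to Atf3, Pdlim4 and Nppb (0.126 to 0.136), all of them lowest on P6 mes1. The transthyretin gene Ttr, on the visceral list, read 3138 on P6 mes2, 303 on P6 mes1 and 526 on P0.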

How the data were processed

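Total RNA was amplified and biotin-labelled with an Illumina TotalPrep kit, per the labels' protocols. The deposited table gives normalized intensity on a linear scale; per the submitters' processing notes BeadStudio was among the tools, and the sources used here do not give how background, normalization and the choice of probes were handled. A scanner table with 12 value columns whose names match no sample label was not used, so detection p-values were not used here. Probes were named through the platform annotation (10475 with 1 symbol, 0 with several, 622 with none), updated through RefSeq (0 symbols changed). Each gene was represented by its brightest probe (mean log2 value), which gave 8396 features.

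Linear models with 1 coefficient for each group of arrays were fitted to log2 values in limma 3.58.1 under R 4.3.3 (empirical Bayes, 3 residual and 3.81 prior degrees of freedom). No normalization or filter was added. P-values are two-sided, adjusted by Benjamini-Hochberg over all features of a comparison. All probes were also fitted as features, for the further probes of a gene. The fit was tested on simulated data. The small number of arrays limits the precision.

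The members and the 11 gene lists were chosen with earlier results of these data known. Named beside the members are a fixed set (Sox17, Sox7, Gata4, Gata6, Dab2, Lama1, the ligands Pth, Pthlh, Pdgfa, Pdgfb and Pdgfc, and Snai2, Cdh1, Pou5f1 and Nanog), up to 2 called rises and 2 called falls per list or all of a count of 5 or fewer, the brightest genes where none was called, and the 3 genes nearest to each member. Vim, P4ha2, Col1a1, Col1a2, Col3a1, Pdgfrb, Prkar1a, Snai3, Twist1, Twist2, Zeb1, Tcf4, Pecam1, Acta2 and B3galt6 were named after their values were seen. The alternatives tried were 2 numbers added before log2, median centring, quantile normalization, an intensity filter, other fold limits, other handling of probes, the replicate number as a block and each array left out.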

Additional observations from a re-analysis of the deposited data

Results flagged for a closer look

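All 6 genes differed between the passaged cultures in their change from P0, by the direct test of P6 mes2 against P6 mes1. The genes were chosen with earlier results of these arrays known, so this result is a description. The arrays of a group are technical duplicates of the same culture, so the test cannot tell the mesenchyme from other differences between cultures. The log2 differences were 3.46 for Srgn, 3.95 for Hs3st1, 3.34 for Thbd, 3.28 for Pth1r, 2.69 for Pdgfra and 3.50 for Snai1. The share of all features called in that comparison was 25.4%. Groups of 2 arrays are too small for a check of outlying samples.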

How the results depend on the processing

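The calls of all measured members on P6 mes2, against P0 and against P6 mes1, held under each alternative run (6 of 6; 4 of 4 at a mean intensity of at least 50, where Thbd and Snai1 were left out). On P6 mes1 against P0 1 member was called after adding 16 to all intensities, 0 after adding 50, 0 by the test of a change beyond 2-fold and 5 with no fold limit. Leaving out 1 array gave 2 to 3. No direction reversed among the members or the 92 list gene calls described below. Features called between P6 mes1 and P0 numbered 460, or 209 and 94 after those additions, 283 at a mean intensity of at least 50, 56 by the 2-fold test and 4044 with no fold limit. Between P6 mes2 and P0 they numbered 1573, or 718 after adding 50, 678 by the 2-fold test and 5413 with no fold limit. The same 4 counts between P6 mes2 and P6 mes1 were 2132, 1042, 1127 and 5851. Leaving out 1 array gave 459 to 501, 1573 to 1609 and 2131 to 2166. With the label's replicate number as a replicate block the counts were 460, 1572 and 2131. Deviations of same-numbered arrays correlated at -0.0073 to 0.0107, so the numbers were not taken as pairs. Alternatives were applied to 92 calls of list genes, which are not all list calls. They were those of the fixed set, all of a count of 5 or fewer per list and direction, and otherwise the 2 largest. Of the 92, 20 were lost after adding 16, 29 after adding 50 and 38 by the 2-fold test. Applying the alternatives to list genes was chosen after seeing the data. Added numbers shrink the folds of low intensities by construction.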
